A study of Mus musculus with 25 samples.

Results

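The cytochrome P450 genes of families 1 to 4 encode haem enzymes of the endoplasmic reticulum that add oxygen to drugs, plant toxins, steroids, bile acids and fatty acids. Members were taken by name, as every locus whose symbol is Cyp, a family number from 1 to 4, a subfamily letter and a gene number. This gave 75 loci of 46499 in livers aged 20 weeks and 77 loci of 46052 in livers aged 39 weeks, with the same 75 symbols in both cohorts. Symbols with a further letter, such as Cyp4a12a and Cyp3a41a, fall outside that rule. A member was tested where its estimate was usable and its mean reached 1 FPKM (fragments per kilobase of transcript, scaled to sequencing depth), which left 44 loci at 20 weeks and 46 at 39 weeks.

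In hepatocytes these enzymes take electrons from the reductase encoded by Por, and many of their genes are switched on by ligand-activated receptors. AhR drives the Cyp1 genes, CAR and PXR drive Cyp2b10, several Cyp2c genes and Cyp3a11, and PPAR-alpha drives the Cyp4a genes. In rodents the daily pattern of growth hormone, acting through STAT5b, gives several members a strong bias to one sex, and the lobule sets others apart, with Cyp2e1 and Cyp1a2 high near the central vein and Cyp2f2 high near the portal tract.

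RNA came from whole livers of C57BL/6 mice on a standard diet, labelled either heterozygous for Ncoa5 (Ncoa5+/-, a nuclear receptor coactivator gene) or wild type. At 20 weeks there were 4 untreated Ncoa5+/- and 4 untreated wild type mice. At 39 weeks there were 5 Ncoa5+/- mice given metformin, 5 untreated Ncoa5+/- mice, 3 wild type mice given metformin and 4 untreated wild type mice. Treated mice drank water with metformin, a biguanide used against diabetes, at 250 mg/kg per day from week 8 for 31 weeks.

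Each cohort had its own sequencing facility and normalization, so no test crosses them. Ncoa5 itself ranged from 2.90 to 5.30 FPKM over the 8 mice at 20 weeks and from 2.63 to 6.64 FPKM over the 17 mice at 39 weeks, and it did not separate the mice by label. The labels give no sex, and Y-linked Ddx3y was present in every mouse, at 15.1 to 24.1 FPKM at 20 weeks and 11.9 to 19.7 FPKM at 39 weeks. In 3 libraries the 50 highest loci took 72.5% to 78.7% of the FPKM sum. Of the hepatocyte markers, Alb and Serpina1a are listed at 0 in every mouse, and Apoa1 and Ttr in whole groups. The tissue check therefore rests on the tyrosine-degrading enzymes Hpd, at 932 to 1851 FPKM at 39 weeks, and Tat, at 319 to 1689.7 FPKM. Nothing in the labels says whether mice of a group were littermates or cage mates. The p-values set a difference against the spread between these mice and treat the mice as independent.

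The P450 genes covered a wide range of levels. At 39 weeks, with Cyp2e1 left out, 21 members averaged at least 100 FPKM, 14 from 10 to under 100, 11 from 1 to under 10 and 24 above 0 but under 1, while 6 were listed at 0 in every mouse. At 20 weeks the same classes held 19, 14, 11 and 25 members, and 5 were listed at 0. The members listed at 0 in all 17 older mice were Cyp2b23, Cyp2j7, Cyp2j12, Cyp2j13, Cyp2w1 and Cyp4a29.

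Cyp3a11, the main PXR-induced enzyme of drug clearance in mouse liver, stood highest among members with a usable estimate at 39 weeks, at 1325 ± 107 FPKM in untreated wild type livers (SD, n = 4, as for the values that follow), which was 14.0% of their summed FPKM. Cyp2c29, a CAR-induced epoxygenase, followed at 1181 ± 173 FPKM. Cyp2a5, the coumarin 7-hydroxylase, averaged 786 ± 321 FPKM, and Cyp2d9, a male-biased testosterone 16-alpha-hydroxylase, averaged 761 ± 169.7 FPKM. Each of these overlapped the next in that order across the 4 mice.

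Further down came Cyp2d26 at 617 ± 77.3 FPKM, the naphthalene-oxidising periportal enzyme Cyp2f2 at 568 ± 116 FPKM, and the caffeine-oxidising pericentral enzyme Cyp1a2 at 480.0 ± 154 FPKM. The 10 highest members together made up 72.4% of the summed FPKM. Cyp4v3, the mouse orthologue of the human corneal dystrophy gene CYP4V2, shares a locus with Klkb1, and that locus averaged 194 ± 29.3 FPKM. Cyp4a10, a fatty acid omega-hydroxylase that shares a locus with Cyp4a31 in this cohort, averaged 98.7 ± 17.5 FPKM. Cyp1a1 and Cyp1b1, the other AhR-driven members, stayed low in every mouse, at 0.318 to 0.648 FPKM and 0.0274 to 0.189 FPKM.

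**Figure D1:**
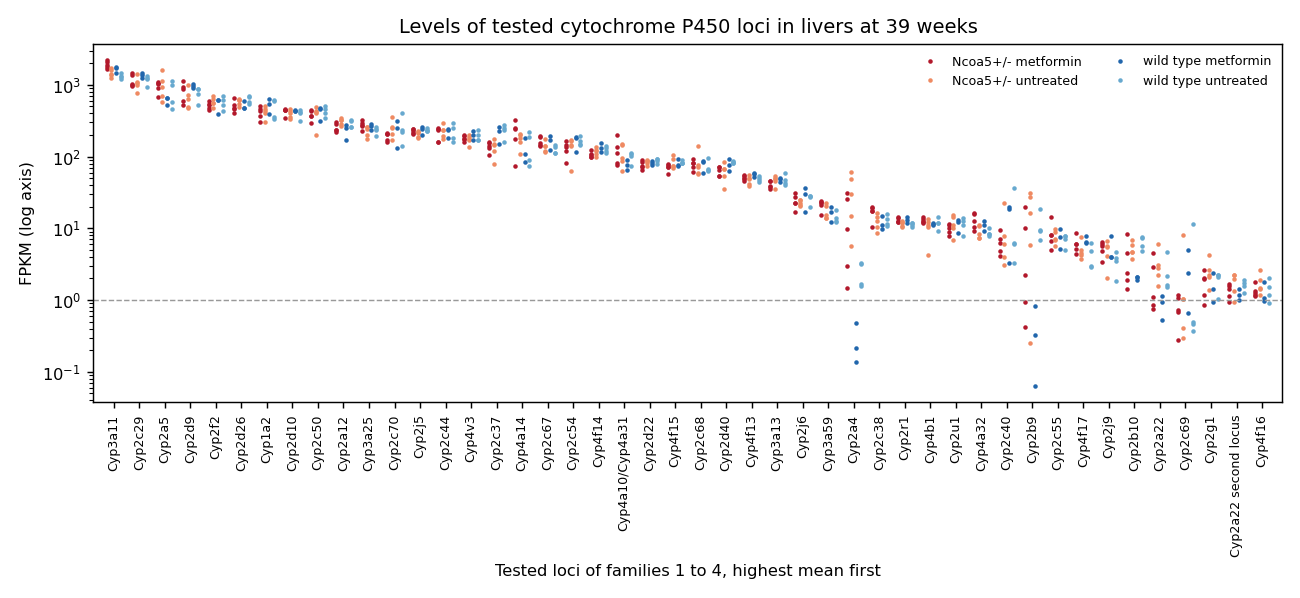
FPKM (log axis) of each tested member in each of the 17 livers aged 39 weeks, with 1 point per mouse coloured by group, loci ordered by mean level and a dashed line at 1 FPKM. Cyp3a11 and Cyp2c29 have the highest means, and the points of Cyp2a4 and Cyp2b9 reach from above 10 FPKM to below 1 FPKM.

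Summed over the 76 member loci with a usable estimate at 39 weeks, which leaves out Cyp2e1, levels overlapped between the groups. The sum had a median of 10095.6 FPKM in treated Ncoa5+/- livers, 9409 FPKM in untreated Ncoa5+/- livers, 10232 FPKM in treated wild type livers and 9425 FPKM in untreated wild type livers. At 20 weeks the sum over 74 loci, without Cyp2e1 and with Cyp3a11 listed at 0 in every mouse, had a median of 7321 FPKM in Ncoa5+/- livers and 7889.9 FPKM in wild type livers, again with overlap. In bulk liver a lower value can come from fewer cells of a type or from less RNA per cell, and these cannot be told apart.

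Cyp2e1, the ethanol- and paracetamol-oxidising enzyme, was the highest member wherever it was estimated, but it is listed at 0 for whole groups and was left out of the fits. At 39 weeks it had 3555, 2736, 3916, 3992 and 2549 FPKM in untreated Ncoa5+/- livers, 4591, 4496 and 4702 FPKM in treated wild type livers and 4061, 4701, 3915 and 3668 FPKM in untreated wild type livers, and it is listed at 0 in all 5 treated Ncoa5+/- livers. At 20 weeks it had 4813, 5287, 1838 and 3238 FPKM in Ncoa5+/- livers and is listed at 0 in all 4 wild type livers. The authors' deposited table marks Cyp2e1 in both comparisons as having too many fragments to estimate.

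The groups of Cyp2e1 that could be compared overlapped. Untreated Ncoa5+/- livers differed from untreated wild type livers by -0.31 in mean log2(FPKM + 1) (two-sided exact permutation p = 0.111, smallest possible single tail 0.00794). Treated wild type livers differed from untreated wild type livers by 0.18 (two-sided exact permutation p = 0.171, smallest possible single tail 0.0286). Each p-value is 2 times the smaller tail, so the smallest possible p is 2 times the tail given. In the wild type comparison that smallest p lies above the threshold, so the test could not have called any difference, however large. Both p-values were 0.171 after adjustment over the 2 tests. Cyp3a11 is listed at 0 in all 8 livers aged 20 weeks, under the same mark, and was not analysed there.

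Between Ncoa5+/- and wild type livers at 39 weeks, Cyp2a4, a female-biased steroid 15-alpha-hydroxylase of mouse liver, was the member that rose. Without metformin it had 29.8, 60.4, 5.74, 49.1 and 15.0 FPKM in Ncoa5+/- livers and 3.16, 1.56, 1.68 and 3.34 FPKM in wild type livers. With metformin it had 1.47, 3.03, 9.80, 25.4 and 31.5 FPKM in Ncoa5+/- livers and 0.214, 0.137 and 0.479 FPKM in wild type livers. Every Ncoa5+/- liver lay above every wild type liver of the same treatment, and within the Ncoa5+/- groups the mice spread over more than 10-fold.

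The ratio of group means was 13.2 without metformin and 51.5 with it. Leaving out each mouse in turn, it was 10.2 to 15.9 without metformin and 35.9 to 81.2 with it, and the 81.2 came without wild type metformin replicate 3. Averaged over both treatments, on the log2(FPKM + 1) scale, the difference was 2.94 ± 0.53 (standard error; 95% interval 1.80 to 4.07; limma, Benjamini-Hochberg adjusted p = 0.0145). Cyp2a4 was the single member called there of 46, beside 59 of all 11441 loci (0.516%). At a pseudocount of 5 the difference was 1.79 (adjusted p = 0.0666), and without wild type metformin replicate 2 it was 2.90 (adjusted p = 0.0540), both outside the threshold.

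Within a single treatment the estimates missed the threshold. Without metformin the log2 difference was 2.92 ± 0.72 (limma adjusted p = 0.206), and with metformin it was 2.96 ± 0.79 (adjusted p = 0.414). The interaction of genotype and metformin for Cyp2a4 was 0.04 ± 1.07 (95% interval -2.23 to 2.30), which leaves a wide range of differences possible. These values moved with the pseudocount, and the treated wild type livers lay below 1 FPKM. With a pseudocount of 0.1 the log2 difference was 3.32 without metformin (adjusted p = 0.187) and 4.56 with it (adjusted p = 0.0499), and with a pseudocount of 5 it was 2.05 (adjusted p = 0.283) and 1.54 (adjusted p = 0.957). With both 39-week libraries over 70% in the 50 highest loci left out, the difference without metformin was 3.40 (adjusted p = 0.0328).

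Cyp2a4 (chromosome 7, 26307190 to 26315088 in the deposited loci, build GRCm38.p5, plus strand, the whole gene with exons and introns) lies upstream of its near copy Cyp2a5 (from 26834713). The coding sequences, 1482 bases each in the GENCODE annotation of GRCm38.p6, differ at 23 bases and are 98.45% the same. Of the 50-base stretches of the coding sequence, 38.2% are equal in both, so reads from those stretches could be assigned to either gene. Reads from the other stretches can tell the genes apart. The 60 coding bases with the most differences, bases 598 to 657 across exons 4 and 5, are shown as an example, with capitals at the 4 bases that differ.
Cyp2a4: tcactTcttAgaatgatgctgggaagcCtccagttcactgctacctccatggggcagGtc
Cyp2a5: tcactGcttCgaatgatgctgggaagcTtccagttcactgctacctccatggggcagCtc

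Because of this likeness the level of Cyp2a5 is given beside it. Cyp2a5 had 1047, 1045, 1082, 897 and 676 FPKM in treated Ncoa5+/- livers and 529.7, 664 and 659 FPKM in treated wild type livers. It had 1631, 709.5, 933, 1127 and 575 FPKM in untreated Ncoa5+/- livers and 570.5, 986, 1126 and 460.0 FPKM in untreated wild type livers. The treated groups did not overlap and the untreated groups did, and the average genotype difference was 0.47 ± 0.22 (limma adjusted p = 0.772).

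Cyp2a4 did not follow Cyp2a5 in a fixed proportion. As a percentage of the Cyp2a5 level of the same liver it had a median of 0.905% (0.141% to 4.65%) in treated Ncoa5+/- livers and 0.0403% (0.0206% to 0.0727%) in treated wild type livers. In untreated livers the median was 2.61% (0.614% to 8.51%) in Ncoa5+/- mice and 0.356% (0.149% to 0.725%) in wild type mice. The liver with the most Cyp2a4, untreated Ncoa5+/- replicate 2 at 60.4 FPKM, had 709.5 FPKM of Cyp2a5, the second lowest value of its group. How far reads from Cyp2a5 add to the Cyp2a4 values was not tested.

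The promoters of both genes are shown to set these near copies side by side. Each window holds the 250 bases before the start in the RefSeq annotation of GRCm38.p6, with TATAAA in capitals, at chr7:26306942-26307191 and chr7:26835089-26835338 on the plus strand. Aligned with an offset of 1 base, 245 of 249 bases were the same (98.4%).
Cyp2a4: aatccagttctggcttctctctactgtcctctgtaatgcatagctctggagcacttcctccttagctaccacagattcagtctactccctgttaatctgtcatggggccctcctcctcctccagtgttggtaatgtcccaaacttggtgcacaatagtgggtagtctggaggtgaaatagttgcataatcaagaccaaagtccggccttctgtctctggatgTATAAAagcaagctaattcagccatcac
Cyp2a5: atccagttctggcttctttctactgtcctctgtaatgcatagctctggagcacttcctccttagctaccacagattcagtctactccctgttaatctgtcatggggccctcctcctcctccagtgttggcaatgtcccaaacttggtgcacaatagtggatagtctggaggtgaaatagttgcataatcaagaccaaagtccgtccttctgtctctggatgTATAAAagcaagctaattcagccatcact

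None of the other tested Cyp2a loci, which are related in sequence to Cyp2a4 and to each other, passed the test for the average genotype difference. Cyp2a22 had 5.98, 1.59, 2.24, 3.10 and 2.79 FPKM in untreated Ncoa5+/- livers and 4.72, 1.51, 2.19 and 1.62 FPKM in untreated wild type livers, and these overlapped, with an average difference of 0.39 ± 0.26 (limma adjusted p = 0.958). Cyp2a12, a steroid hydroxylase, had an average difference of 0.12 ± 0.10 (adjusted p = 0.977).

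**Figure D2:**
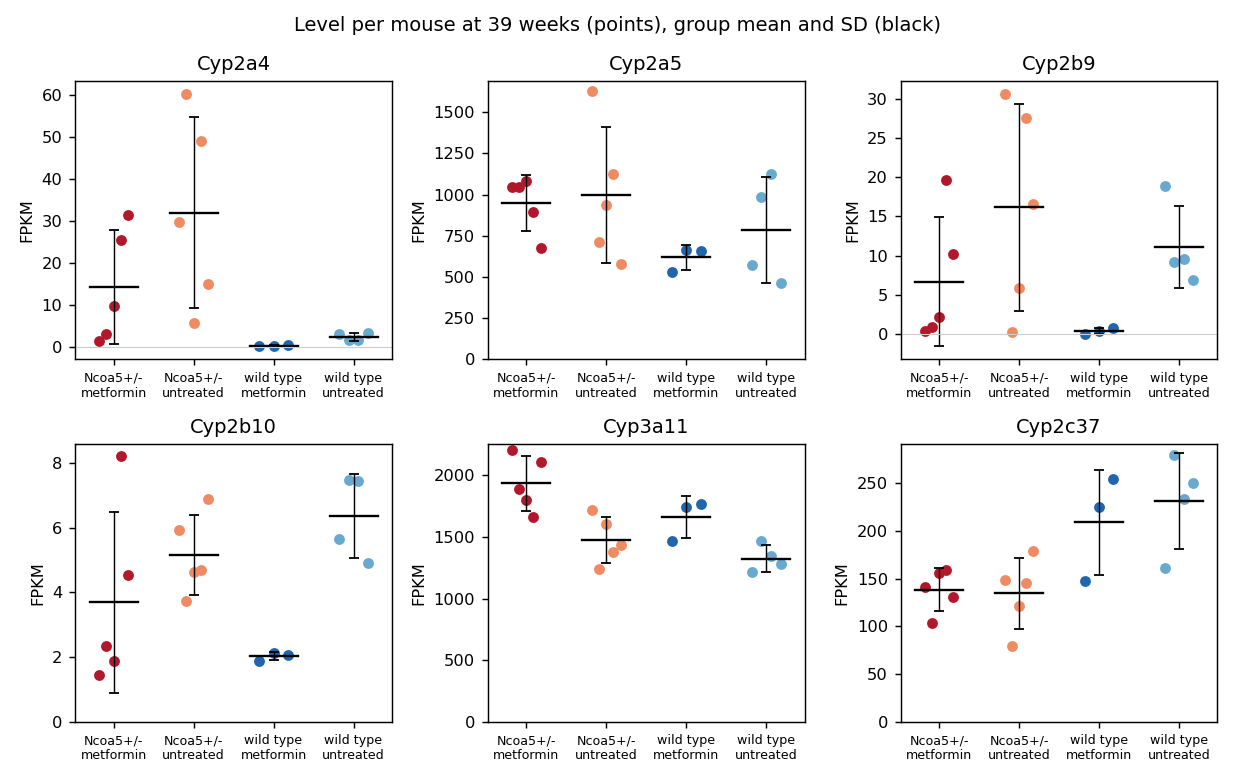
FPKM of Cyp2a4, Cyp2a5, Cyp2b9, Cyp2b10, Cyp3a11 and Cyp2c37 in each 39-week mouse (points), with the group mean and SD in black. Cyp2a4 is higher in both Ncoa5+/- groups, Cyp2b10 in treated wild type livers stays between 1.89 and 2.11 FPKM, and the mean of Cyp2c37 is lower in both Ncoa5+/- groups.

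Among the lower members in Ncoa5+/- livers at 39 weeks, Cyp2c37, an arachidonic acid hydroxylase induced through CAR, had the smallest p. It had 149, 79.5, 121, 146 and 179 FPKM in untreated Ncoa5+/- livers and 161, 279.8, 233 and 250.4 FPKM in untreated wild type livers. With metformin it had 142, 104, 156, 159.6 and 131 FPKM in Ncoa5+/- livers and 148, 225 and 255 FPKM in wild type livers. The groups overlapped in both treatments, through a single wild type liver in each.

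The average log2 difference of Cyp2c37 was -0.68 ± 0.17 (95% interval -1.04 to -0.33; limma adjusted p = 0.125). It was -0.80 ± 0.23 without metformin (adjusted p = 0.336) and -0.57 ± 0.25 with it, where the adjusted p was at its ceiling of 1. Of the 50-base stretches of its transcript, 30.1% occur in other P450 genes, mostly in Cyp2c50. Cyp2c50 and Cyp2c54, the neighbouring CAR-responsive genes, had average differences of -0.16 ± 0.16 and -0.33 ± 0.20.

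Both Cyp2d40 and Cyp4f14 carried small negative differences with unadjusted p under 0.05. Cyp2d40 had 67.3, 35.7, 83.0, 68.2 and 53.1 FPKM in untreated Ncoa5+/- livers and 83.9, 81.6, 87.6 and 82.4 FPKM in untreated wild type livers. A single Ncoa5+/- liver reached into the wild type range, and the average difference was -0.39 ± 0.14 (limma adjusted p = 0.509). Cyp4f14, a leukotriene B4 omega-hydroxylase, had an average difference of -0.21 ± 0.08 (adjusted p = 0.564).

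Markers of pericentral hepatocytes had differences of the same sign as Cyp2c37. Of 6 tested markers, with Cyp1a2 among them and Cyp2e1 left out, 5 had a negative average genotype difference and 4 of these an unadjusted p under 0.05, where 44.0% of all loci were positive and 6.2% had such a p. Their summed level was 1016 to 1335 FPKM in treated Ncoa5+/- livers, 976 to 1397 FPKM in untreated Ncoa5+/- livers, 1377 to 1736 FPKM in treated wild type livers and 1318 to 1675 FPKM in untreated wild type livers. Periportal sums also had lower medians in Ncoa5+/- than in wild type livers, at 2740.5 and 3627 FPKM with metformin and 3639 and 4221 FPKM without. The hepatocyte sum, which rests on Hpd and Tat, had medians of 1640 and 2170 FPKM with metformin and 1985 and 2463 FPKM without. The ranges of both sums overlapped between genotypes, so the lower level was not particular to pericentral markers. The part of these lists in the P450 results was not tested.

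Without metformin 0 members passed the adjusted threshold for genotype at 39 weeks, beside 0.262% of all loci, and 4 of 46 had an unadjusted p under 0.05, beside 5.62%. With metformin 0 members passed, beside 0.157%, and 4 had an unadjusted p under 0.05, beside 4.35%. Groups that did not overlap were found for Cyp2a4 without metformin (1 member, beside 1.81% of all loci) and for Cyp2a4 and Cyp2a5 with metformin (2 members, beside 3.72%). For the average effect 7 members (15.2%) had an unadjusted p under 0.05, beside 6.2% of all loci, a gap that was not tested. The 95% interval lay within a 2-fold change for 40 of 46 members, and the 6 wider ones were Cyp2a4, Cyp2b9, Cyp2c37, Cyp2c40, Cyp2c69 and Cyp4a14.

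**Figure D3:**
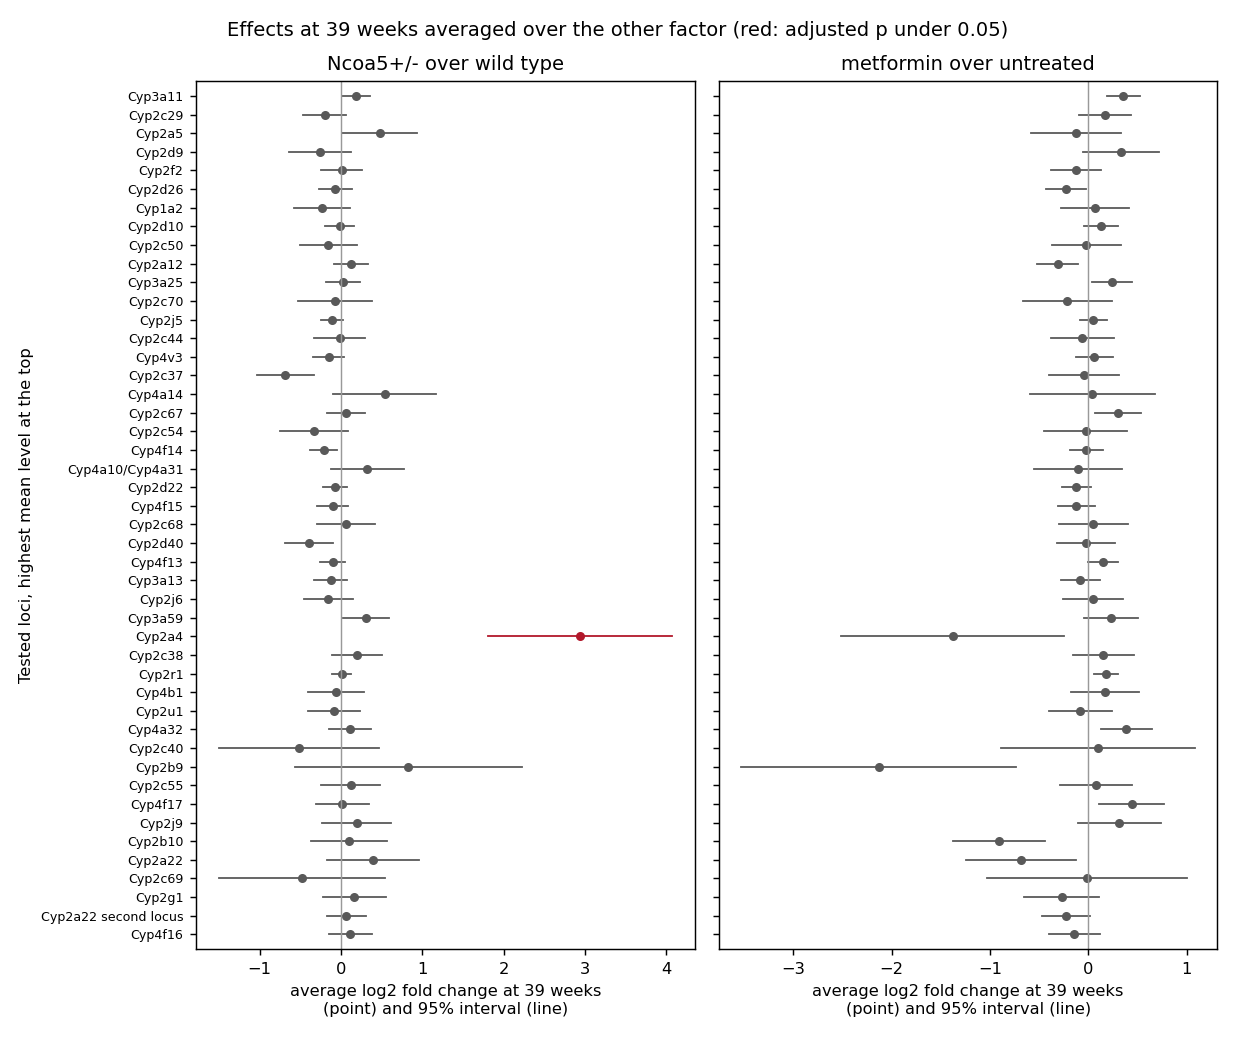
Log2 fold change (point) and 95% interval (line) of each tested member at 39 weeks, for Ncoa5+/- over wild type averaged over treatment (left) and metformin over untreated averaged over genotype (right). Cyp2a4, at 2.94 on the left, is the single red point, and on the right Cyp2b9 lies furthest below 0 at -2.13.

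Under metformin at 39 weeks no member passed the test, and the members with the smallest p were Cyp3a11, higher in treated livers, and Cyp2b10, lower. Cyp3a11 had 2208, 1888, 1804, 1662 and 2111 FPKM in treated Ncoa5+/- livers and 1716, 1239.5, 1606, 1379 and 1436 FPKM in untreated ones. It had 1466, 1744 and 1772 FPKM in treated wild type livers and 1213, 1464, 1343 and 1279 FPKM in untreated ones. In wild type mice every treated liver lay above every untreated one, and in Ncoa5+/- mice a single treated liver fell inside the untreated range.

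The average log2 difference of Cyp3a11 was 0.36 ± 0.08 (95% interval 0.19 to 0.53; limma adjusted p = 0.0738). It was 0.39 ± 0.10 in Ncoa5+/- livers and 0.32 ± 0.12 in wild type livers. Without Ncoa5+/- metformin replicate 4 the average was 0.38 and passed the threshold (adjusted p = 0.0435). Cyp3a25, which lies in the same cluster on chromosome 5, had an average difference of 0.24 ± 0.10 (adjusted p = 0.250).

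Cyp2b10, the standard readout of CAR activity in mouse liver, had 1.45, 2.35, 1.88, 8.22 and 4.54 FPKM in treated Ncoa5+/- livers and 5.93, 3.71, 4.62, 4.69 and 6.87 FPKM in untreated ones. It had 1.89, 2.11 and 2.07 FPKM in treated wild type livers and 5.66, 7.46, 7.44 and 4.90 FPKM in untreated ones. The wild type groups lay apart and the Ncoa5+/- groups overlapped, with treated replicates 4 and 5 inside or above the untreated range. The average log2 difference was -0.91 ± 0.22 (limma adjusted p = 0.0886), and without Ncoa5+/- metformin replicate 4 it was -1.06 (adjusted p = 0.0224).

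Cyp2b9, a female-biased gene in the same cluster as Cyp2b10 on chromosome 7, had 0.425, 0.938, 2.21, 19.6 and 10.2 FPKM in treated Ncoa5+/- livers and 30.7, 0.251, 5.92, 27.5 and 16.6 FPKM in untreated ones. It had 0.0642, 0.329 and 0.832 FPKM in treated wild type livers and 18.8, 9.17, 9.56 and 6.84 FPKM in untreated ones. All 3 treated wild type livers were below 1 FPKM and all 4 untreated ones above 6 FPKM, while the Ncoa5+/- groups overlapped across nearly their whole range. The average log2 difference was -2.13 ± 0.66 (limma adjusted p = 0.142), with -1.21 ± 0.84 in Ncoa5+/- livers and -3.05 ± 1.01 in wild type livers.

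Whether metformin acted differently in the genotypes could not be read from these members. The interaction was 1.83 ± 1.31 for Cyp2b9 and 0.71 ± 0.44 for Cyp2b10 (limma adjusted p = 0.991 and 0.991). The 95% intervals ran over -0.96 to 4.63 and -0.22 to 1.65. Of 46 members, 0 passed the interaction test, beside 0.0% of all loci, and 0 had an unadjusted p under 0.05, beside 2.79%.

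The promoter windows of Cyp2b9, Cyp2b10 and Cyp3a11 are shown because these members had the largest metformin difference or the smallest p, and their motifs are in capitals. Cyp2b9 (chr7:26173159-26173408, plus strand) and Cyp2b10 (chr7:25897408-25897657, plus strand) were the same at 50.6% of 249 bases compared without gaps. Any inserted or deleted base shifts the rest of such a comparison, so this value does not measure how alike both promoters are. Capitals mark AGGTCA, the core of many nuclear receptor elements, in Cyp2b9, GCGTG or its reverse complement CACGC, the core of the AhR element, in Cyp2b10, and TATAAA and AGGTCA in Cyp3a11 (chr5:145879855-145880104, minus strand).
Cyp2b9: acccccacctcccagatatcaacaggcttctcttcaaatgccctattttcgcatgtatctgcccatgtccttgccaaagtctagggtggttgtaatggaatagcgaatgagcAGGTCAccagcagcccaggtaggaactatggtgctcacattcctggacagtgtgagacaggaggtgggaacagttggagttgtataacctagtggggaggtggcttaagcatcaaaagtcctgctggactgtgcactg
Cyp2b10: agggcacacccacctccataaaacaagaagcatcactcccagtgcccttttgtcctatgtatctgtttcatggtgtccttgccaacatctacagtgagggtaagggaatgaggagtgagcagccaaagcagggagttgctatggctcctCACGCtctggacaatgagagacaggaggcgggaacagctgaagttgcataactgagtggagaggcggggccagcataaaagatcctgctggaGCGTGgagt
Cyp3a11: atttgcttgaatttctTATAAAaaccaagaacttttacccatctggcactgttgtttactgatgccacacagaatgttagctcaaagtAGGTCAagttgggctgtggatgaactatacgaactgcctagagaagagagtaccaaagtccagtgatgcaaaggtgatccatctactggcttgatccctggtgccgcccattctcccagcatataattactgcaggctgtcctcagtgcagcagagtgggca

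RefSeq windows were found for 62 of the 75 symbols, in 69 windows. On either strand TATAAA was present in 24 of them (34.8%) and in 12.4% of all 32851 mouse windows of this length. AGGTCA was present in 17 (24.6%) and in 14.0% of all windows, and TTCNNNGAA, the STAT5 element, in 4 (5.8%) and 7.02%. GCGTG was present in 13 (18.8%) and in 28.2% of all windows. Windows such as those of Cyp2a4 and Cyp2a5 are near copies, so the member windows are not independent of each other.

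Other members under metformin had smaller differences. Cyp2r1, the vitamin D 25-hydroxylase, had 12.3, 12.2, 14.4, 14.0 and 12.5 FPKM in treated Ncoa5+/- livers and 12.3, 10.5, 12.0, 12.5 and 10.8 FPKM in untreated ones. It had 11.9, 14.5 and 13.2 FPKM in treated wild type livers and 12.0, 11.0, 10.5 and 11.8 FPKM in untreated ones. The groups overlapped, and the average difference was 0.18 ± 0.06 (limma adjusted p = 0.142).

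Cyp4a32, of the PPAR-alpha-driven fatty acid omega-hydroxylases, averaged 12.9 ± 3.15 FPKM in treated and 8.99 ± 1.82 FPKM in untreated Ncoa5+/- livers (SD, n = 5 each), with an average difference over genotypes of 0.39 ± 0.12 (limma adjusted p = 0.144). Cyp4f17 had a difference of 0.64 ± 0.24 in wild type livers (adjusted p = 0.429). Cyp2a12 had an average difference of -0.31 ± 0.10 (adjusted p = 0.155). Cyp2a4 had an average metformin difference of -1.38 ± 0.53 (adjusted p = 0.235).

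In Ncoa5+/- livers 0 of 46 members passed the test for metformin, beside 0.0% of all loci, and 6 had an unadjusted p under 0.05, beside 8.83%. In wild type livers 0 passed, beside 0.0%, and 6 had an unadjusted p under 0.05, beside 9.35%. For the average effect 0 passed, beside 0.035%, and 12 had an unadjusted p under 0.05, beside 15.2%. Of these 12, 6 were higher, beside 7.17%, and 6 lower, beside 8.06%. The share of members with an unadjusted p under 0.05 was 13.0% in Ncoa5+/- livers, 13.0% in wild type livers and 26.1% for the average effect, each above the share of all loci, a gap that was not tested.

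Under metformin, some lists of cell markers had differences mostly of one sign. All 7 Kupffer cell markers were positive on average, beside 48.5% of all loci (median 0.20, 1 with an unadjusted p under 0.05), and their summed level was 132 to 193 FPKM in treated and 67.6 to 197 FPKM in untreated Ncoa5+/- livers, and 148 to 188 FPKM in treated and 110.1 to 316 FPKM in untreated wild type livers. Of 7 periportal markers, with Cyp2f2 among them, 6 were negative (median -0.30, 2 with an unadjusted p under 0.05). Their summed level was 2522 to 4204 FPKM in treated and 3267 to 6017 FPKM in untreated Ncoa5+/- livers, and 3442 to 3649 FPKM in treated and 3216 to 4753 FPKM in untreated wild type livers. Stellate sums had medians of 93.0 FPKM in treated and 80.2 FPKM in untreated Ncoa5+/- livers, and 91.5 and 72.7 FPKM in wild type livers. In the same order the erythroid medians were 616, 476, 682 and 561 FPKM. Endothelial medians were 107, 105, 104 and 104 FPKM, and cholangiocyte medians were lower with metformin, at 3.33, 3.63, 3.52 and 3.99 FPKM. The part of any of these lists in the P450 values was not tested.

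Treated and untreated groups did not overlap for 7 members in wild type livers, beside 8.33% of all loci. Cyp4f17, Cyp3a11 and Cyp2d9 lay above and Cyp2b10, Cyp2b9, Cyp2a22 and Cyp2a4 below. A second locus of Cyp2a22 did overlap, at 0.997 to 1.44 FPKM in treated and 1.26 to 1.91 FPKM in untreated wild type livers. In Ncoa5+/- livers 0 members were free of overlap, beside 1.57%.

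Of the female-biased genes, Cyp2a4 and Cyp2b9 made up nearly all of the signal. The summed FPKM of 7 female-biased genes was 2.03 to 45.9 in treated Ncoa5+/- livers and 12.6 to 77.5 in untreated Ncoa5+/- livers. It was 0.316 to 1.49 in treated wild type livers and 10.4 to 22.9 in untreated wild type livers. Of the 7 genes only Cyp2a4 and Cyp2b9 reached the filter, and Cyp3a16, Cyp3a41a, Cyp3a41b and Cyp3a44 did not exceed 0.103 FPKM in any 39-week liver.

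Of the 3 male-biased genes, Cyp2d9 is a member and Cyp4a12a and Cyp4a12b lie outside the naming rule. All 3 had positive metformin differences in both genotypes, with a median of 0.385 for the average effect, and negative genotype differences, with a median of -0.26, beside 48.5% of all loci positive for metformin and 44.0% for genotype. None passed the adjusted threshold, and 1 had an unadjusted p under 0.05 for metformin. Cyp2d9 had 895, 976 and 1017 FPKM in treated wild type livers and 752, 889, 879 and 524 FPKM in untreated ones.

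Of the 7 CAR- and PXR-responsive members at 39 weeks, 3 were positive and 4 negative for metformin on average, with a median of -0.02, and Cyp3a11 and Cyp2b10 had opposite signs. All 3 tested PPAR-alpha-responsive loci were positive for genotype on average, beside 44.0% of all loci, with a median of 0.32 and 0 with an unadjusted p under 0.05. Cyp4a14, a fatty acid omega-hydroxylase, had 181, 159, 109, 203 and 205 FPKM in untreated Ncoa5+/- livers and 218, 74.9, 89.3 and 187 FPKM in untreated wild type livers. Those groups overlapped, and the average difference was 0.54 ± 0.30 (limma adjusted p = 0.897).

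Among genes that serve the P450 system, 0 of 7 electron-transfer and haem partners passed the threshold in either average effect. The same held for 16 tested regulators of 18 listed, among them AhR, CAR, PXR, PPAR-alpha, STAT5b and Bcl6. For genotype, Nfe2l2, the regulator of the oxidative stress response, was positive at 0.51 (limma adjusted p = 0.0996), and Nr0b2, the bile acid induced repressor, was negative at -0.86 (adjusted p = 0.708). For metformin, Nr1h4, the bile acid receptor, was positive at 0.16 (adjusted p = 0.303). Por, the electron donor of every member, was negative at -0.35 for metformin (adjusted p = 0.219). Each of these 4 had an unadjusted p under 0.05.

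At 20 weeks the P450 genes of Ncoa5+/- and wild type livers could not be told apart by the test. Of 44 members 0 passed, beside 0.0% of all 10963 loci, and 3 had an unadjusted p under 0.05, beside 7.48%. Groups were free of overlap for 0 members, beside 4.02% of loci. The 95% interval lay within a 2-fold change for 29 of 44 members, so larger differences remain possible for the other 15.

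Cyp3a13 had 61.7, 57.5, 106 and 62.2 FPKM in Ncoa5+/- livers and 58.6, 46.9, 37.6 and 41.6 FPKM in wild type livers, a log2 difference of 0.60 ± 0.22 (limma adjusted p = 0.603). Cyp4b1 had 4.57, 4.58, 2.30 and 2.30 FPKM in Ncoa5+/- livers and 4.24, 5.20, 6.20 and 6.04 FPKM in wild type livers, a difference of -0.57 ± 0.22. Cyp4a31 had 8.06, 10.7, 7.35 and 4.42 FPKM in Ncoa5+/- livers and 5.57, 4.59, 4.79 and 3.71 FPKM in wild type livers, a difference of 0.56 ± 0.22. All 3 pairs of groups overlapped.

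The members that led at 39 weeks overlapped between the genotypes at 20 weeks. Cyp2c37 had 106, 178, 45.4 and 108 FPKM in Ncoa5+/- livers and 151, 141, 121 and 121 FPKM in wild type livers, a difference of -0.43 ± 0.36. Cyp2b10 had 9.29, 8.90, 3.98 and 1.11 FPKM in Ncoa5+/- livers and 5.89, 3.68, 4.33 and 2.76 FPKM in wild type livers. Cyp2b9 had 2.07, 2.60, 0.0210 and 0.0743 FPKM in Ncoa5+/- livers and 2.29, 1.20, 1.08 and 0.280 FPKM in wild type livers.

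Cyp2a4 lay under the filter at 20 weeks. It had 1.91, 0.511, 1.98 and 0.192 FPKM in Ncoa5+/- livers and 0.561, 0.425, 0.107 and 0.0846 FPKM in wild type livers, and the groups overlapped. With no filter the log2 difference was 0.64 ± 0.32 (standard error; limma adjusted p = 0.735). Both groups lay below the untreated Ncoa5+/- livers of the older cohort, which was not tested because the cohorts were normalized apart.

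Ncoa5+/- replicate 3 at 20 weeks was low for many members, and had the lowest value of all 8 livers for 19 of the 44 tested. It had 125 FPKM of Cyp1a2, 106 FPKM of Cyp2c50, 31.1 FPKM of Cyp2c54, 45.4 FPKM of Cyp2c37 and 1838 FPKM of Cyp2e1, in each case the lowest of the livers in which the gene was estimated. It was also lowest for Cyp2a5 (180 FPKM) and for Cyp2d9 (425 FPKM), and its sum over the 74 loci was 5259 FPKM, the lowest of the cohort. The same liver had the lowest sums of Kupffer cell markers (24.3 FPKM) and endothelial markers (29.3 FPKM). It had 41714 FPKM summed over 16 acute phase genes, against 10007 to 18772 FPKM in the other 7. All 16 acute phase genes were positive in Ncoa5+/- livers, beside 54.4% of all loci (median log2 difference 0.76, 5 with an unadjusted p under 0.05), and all 7 Kupffer cell markers were negative (4 with an unadjusted p under 0.05). Acute phase sums were 13196 and 12355 FPKM in Ncoa5+/- replicates 1 and 2 and 18772 FPKM in replicate 4. Wild type livers had 10007 to 12380 FPKM, so the gap was largest in Ncoa5+/- replicates 3 and 4. Kupffer cell sums were 24.3 to 45.1 FPKM in Ncoa5+/- livers. They were 32.3 and 52.1 FPKM in wild type replicates 1 and 2 and 88.0 and 68.0 FPKM in replicates 3 and 4. The part of acute phase or Kupffer cell genes in the P450 values was not tested.

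**Figure D4:**
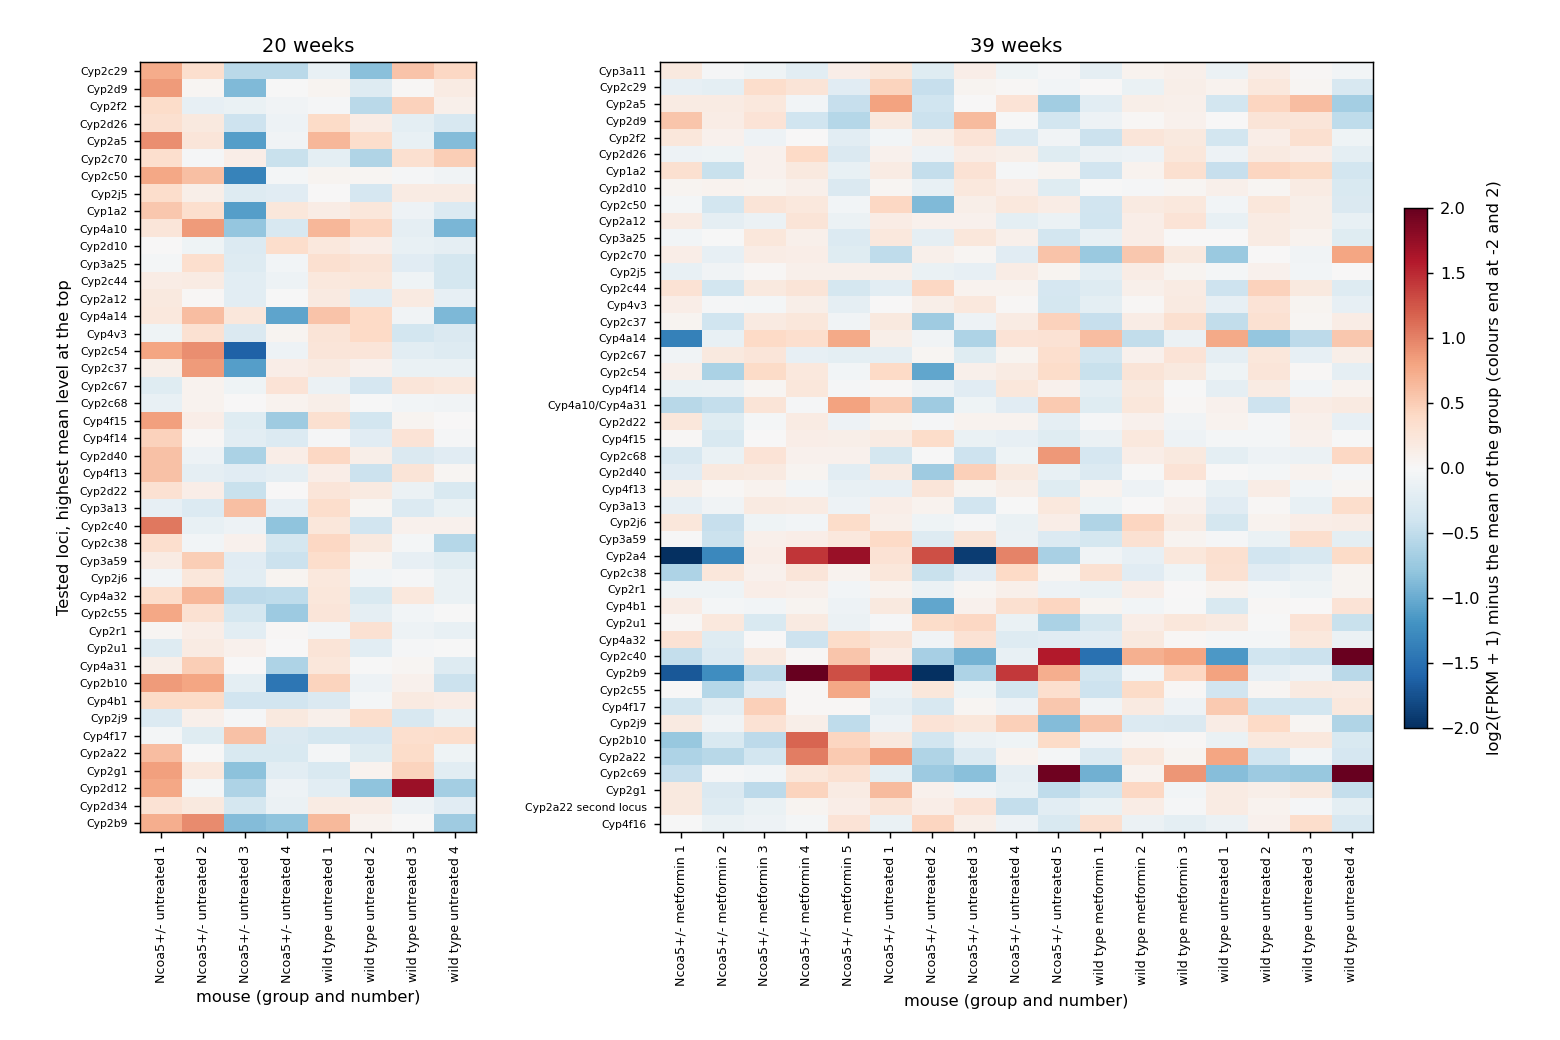
Log2(FPKM + 1) of each tested member in each mouse minus the mean of the mouse's group, at 20 weeks (left) and 39 weeks (right), with loci ordered by level. At 20 weeks the column of Ncoa5+/- replicate 3 is blue for Cyp2c54, Cyp2c50 and Cyp1a2, and at 39 weeks Cyp2c40 and Cyp2c69 are both dark red in untreated Ncoa5+/- replicate 5 and untreated wild type replicate 4.

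The spread between mice of a group was wider for P450 genes than for most loci. At 39 weeks 39 of 46 tested members had a within-group SD above 0.179, the median of all tested loci on the log2(FPKM + 1) scale, and at 20 weeks 35 of 44 lay above the median of 0.252. Loci were not matched on level here, and the added 1 narrows the spread of loci with low FPKM. Cyp2b9 (SD 1.45), Cyp2a4 (1.18), Cyp2c69 (1.05) and Cyp2c40 (1.02) varied most at 39 weeks. Cyp2r1 (0.10), Cyp2j5, an arachidonic acid epoxygenase (0.12), and Cyp2d22 (0.14) varied least.

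Cyp2c40 and Cyp2c69 had their 4 highest values in the same mice at 39 weeks, across groups. Cyp2c40 had 22.6 FPKM in untreated Ncoa5+/- replicate 5, 18.5 and 19.6 FPKM in treated wild type replicates 2 and 3, and 36.5 FPKM in untreated wild type replicate 4, and 3.06 to 9.48 FPKM in the other 13 mice. In those 4 mice Cyp2c69 had 7.97, 2.40, 4.93 and 11.4 FPKM. Cyp2c70, which makes the muricholic acids of mouse bile, had 357, 318, 249 and 403 FPKM in them, and 129.8 to 258 FPKM in the other 13 mice, so that 3 of the 4 lay above all others.

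Cyp2c40 and Cyp2c69 share 42.1% of the 50-base stretches of the Cyp2c40 transcript and may share reads, whereas Cyp2c70 shares 0.0% with any other P450 gene. With any other P450 gene Cyp2c40 shares 72.1%. Cyp2c68, whose closest gene is Cyp2c40, had 140 FPKM in untreated Ncoa5+/- replicate 5 and 95.8 FPKM in untreated wild type replicate 4. It had 83.2 and 87.3 FPKM in treated wild type replicates 2 and 3, and 56.7 to 93.4 FPKM in the remaining mice. The 4 mice came from 3 of the 4 groups. Average genotype differences were -0.51 ± 0.46 for Cyp2c40, -0.48 ± 0.48 for Cyp2c69 and -0.07 ± 0.21 for Cyp2c70 (limma adjusted p = 0.977, 0.979 and 0.998).

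Cyp2a4 and Cyp2b9, both female-biased and in the same cluster on chromosome 7, did not vary together in every liver. Untreated Ncoa5+/- replicate 2 had the most Cyp2a4 of its group, at 60.4 FPKM, and the least Cyp2b9, at 0.251 FPKM. The same liver had the lowest Cyp2c37 (79.5 FPKM) and Cyp2d40 (35.7 FPKM) of all 17, and the lowest value for 11 of the 46 tested members. Its summed Kupffer cell markers were at 67.6 FPKM, against 114 to 197 FPKM in the rest of its group, its endothelial markers at 42.7 FPKM, against 93.0 to 109.9 FPKM, and its periportal markers at 6017 FPKM, against 3267 to 3774 FPKM. Their part in its P450 values was not tested. Without this liver the average genotype difference was 2.78 for Cyp2a4 (limma adjusted p = 0.0266), -0.60 for Cyp2c37 (adjusted p = 0.106) and -0.30 for Cyp2d40 (adjusted p = 0.397).

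Treated Ncoa5+/- replicates 4 and 5 were high for both Cyp2a4 and Cyp2b9, at 25.4 and 31.5 FPKM of Cyp2a4 and 19.6 and 10.2 FPKM of Cyp2b9. In untreated wild type livers Cyp2b9 exceeded Cyp2a4 in all 4 mice.

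**Figure D5:**
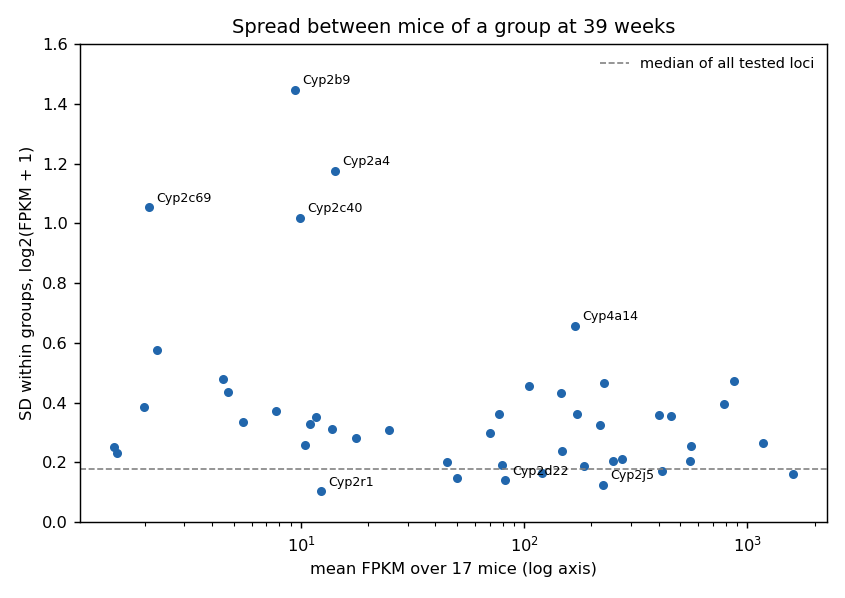
Within-group SD of log2(FPKM + 1) at 39 weeks for each tested member against its mean FPKM over the 17 mice (log axis), with a dashed line at the median of all tested loci. The members with the widest spread, Cyp2b9, Cyp2a4, Cyp2c69 and Cyp2c40, have mean levels of 2 to 14 FPKM, and most of the others sit above the line.

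Many members are near copies of each other, which limits how their reads can be told apart. Of 74 symbols with an annotated transcript, 13 share no 50-base stretch with another P450 gene, 61 share some and 35 share more than 10%, with a median of 8.01%. Cyp2r1 and Cyp2f2 share 0.0%, Cyp2b10 8.57%, Cyp2b9 10.8%, Cyp3a11 14.8%, Cyp2a4 38.0% and Cyp4a32 46.8%. With under 1 Mb between neighbours the genes form 16 groups along the genome, single genes included, the largest with 14 Cyp2c genes on chromosome 19 (39007019 to 40187333) and 13 genes on chromosome 7 (25802475 to 27158668) that include Cyp2a4, Cyp2a5, Cyp2b9, Cyp2b10 and Cyp2f2. Some deposited loci merge a member with a neighbour, such as Cyp2c29 with the pseudogene Cyp2c53-ps, Cyp2d9 with Gm27622 and Cyp4v3 with Klkb1, and the values of such a locus cover both genes.

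The authors' own comparisons rest on the same libraries and are no independent support. In the authors' deposited table for 20 weeks, 1 of 50 members tested was significant, beside 2.1% of loci: Cyp2a4 at 1.09 FPKM in Ncoa5+/- livers and 0.291 FPKM in wild type livers (log2 1.90, q = 0.00413). In the authors' deposited table for metformin in Ncoa5+/- livers, 4 of 54 were significant, all lower, beside 1.22% of loci and 0.84% for lower ones. They were Cyp2a4 at 14.7 FPKM treated and 33.2 FPKM untreated (log2 -1.17), Cyp2b9 at 6.06 and 14.9 FPKM (-1.29), Cyp2c69 at 0.616 and 1.71 FPKM (-1.47), each with q = 0.00668, and Cyp2b13, a neighbour of Cyp2b9, at 0.239 and 0.831 FPKM (-1.80, q = 0.0461). In limma the same comparison of Cyp2a4 gave -1.36 ± 0.68 (adjusted p = 0.579) and of Cyp2b9 -1.21 ± 0.84 (adjusted p = 0.70). For Cyp2c69, untreated Ncoa5+/- replicate 5 had 7.97 FPKM and the other untreated Ncoa5+/- livers 0.295 to 1.04 FPKM. The treated Ncoa5+/- livers had 0.273 to 1.18 FPKM of Cyp2c69, so its lower treated value rests on that untreated liver.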

How the data were processed

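RNA sequencing of whole livers from 25 mice in 6 groups was analysed, 8 mice at 20 weeks and 17 at 39 weeks. The deposited values are FPKM, scaled by the authors between the libraries of a cohort with Cuffnorm; Trimmomatic 0.33, TopHat2 and Cufflinks are named in the submitters' processing notes, and the build is GRCm38.p5 per the labels. How Cuffnorm scaled them and whether strand was used are not given in the sources used here. The authors' deposited comparison tables hold log2 fold changes, each locus with its p-value and q-value, turned here so that Ncoa5+/- is over wild type and metformin over untreated. No read counts were used and depth is unknown, so no counting intervals are given.

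Members and lists were chosen with earlier results of these data known. Loci whose cohort mean reached 1 FPKM were tested on log2(FPKM + 1) with limma 3.58.1 in R 4.3.3 (a mean per group, moderated variances with a trend), cohorts apart, with Benjamini-Hochberg adjustment over all tested loci and a threshold of 0.05. Average effects are the mean of both simple contrasts. Errors of log2 differences are standard errors and intervals are 95%. A locus at 0 throughout one group but detected in all mice of another, at a group mean of 1 FPKM or more, counted as a failed estimate (15 at 20 weeks and 14 at 39 weeks, Cyp2e1 among them); that rule was written after the data were seen. Cyp2e1 was compared by exact permutation tests in Python 3.11.15 with scipy 1.17.1.

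Named genes are the members called, the 3 with the smallest p in each comparison, the 8 with the highest level, a set of well known members, the members of the role lists, and the 3 with the widest and the 3 with the narrowest spread; others named were chosen after their values were seen. Alternatives were pseudocounts of 0.1 and 5, no filter and a filter at 5 FPKM, quantile and median scaling, no trend, array weights, the compared groups alone, and each mouse left out. Sequences come from RefSeq and GENCODE on GRCm38.p6. Mouse numbers within a group follow the order of deposition.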

Additional observations from a re-analysis of the deposited data

Results flagged for a closer look

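A mouse stood far from the rest of its group for 7 of 131 groups of 4 or 5 values examined, where chance gives about 1 in 20. At 20 weeks Cyp2f2 was at 731.9 FPKM in Ncoa5+/- replicate 1 and Cyp3a13 at 106 FPKM in Ncoa5+/- replicate 3. At 39 weeks Cyp2c69 was high in untreated Ncoa5+/- replicate 5, at 7.97 FPKM, and in untreated wild type replicate 4, at 11.4 FPKM, the same mice in which Cyp2c40 was high. Cyp4b1 was at 4.23 FPKM in untreated Ncoa5+/- replicate 2. Cyp2c38 was at 10.4 FPKM in treated Ncoa5+/- replicate 1, and the locus of Cyp2d10 and Gm27331 at 348 FPKM in treated Ncoa5+/- replicate 5, one of the libraries with over 70% of its FPKM in the 50 highest loci.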

How the results depend on the processing

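Depth is unknown, so counting error was not estimated. Of the log2 differences of the 3 members with the smallest p in each comparison, none changed sign under the alternatives run, and the other named genes are not covered by that count. Keeping failed estimates at 0, which was added after seeing the data, gave 1 member called for genotype at 20 weeks, 1 for genotype with metformin, 1 for metformin in Ncoa5+/- livers, 1 for the interaction, 2 for the average genotype effect and 1 for the average metformin effect. The only member that this setting adds to the fits is Cyp2e1, listed at 0 throughout a whole group of each cohort. A call of Cyp2e1 there follows from that 0, so the added calls say nothing about genotype or metformin. Leaving out libraries over 70% in the 50 highest loci, also added later, gave 1 for genotype without metformin (Cyp2a4, 3.40, limma adjusted p = 0.0328). A pseudocount of 0.1 gave 1 for genotype with metformin (Cyp2a4, 4.56, adjusted p = 0.0499), and a pseudocount of 5 gave 0 for the average genotype effect. Without each mouse in turn the average genotype effect had 0 to 1 members called, with 0 only without wild type metformin replicate 2, and the average metformin effect 0 to 2, with 2 only without Ncoa5+/- metformin replicate 4; the cause was not tested. Over all alternatives Cyp2a4 ranged from 1.79 to 3.94 for the average genotype effect (adjusted p = 0.00283 to 0.0666). For metformin in wild type livers every alternative gave 0. No paired analysis was possible because the mouse numbers follow the order of deposition and pair no mice across groups.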
